A study of Mus musculus with 360 samples.

Results

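The cells described here are the CD51+;CD200+ cells in which transcripts of both sorted proteins were read. They were chosen by their reads: at least 1 read of Itgav, which encodes CD51, and at least 1 read of Cd200. Only cells that passed a minimum of 500 detected genes and 10000 reads were considered. In the 7 tables used, 70 of 269 passing cells met this (26.02%, 95% exact binomial interval 20.9 to 31.7), and 76 cells had reads of neither gene. The members had a median of 581208 reads each, and the shallowest had 28983. A further 55 cells had reads of Itgav alone and 68 of Cd200 alone. The 269 cells are those of the PF, COR, GP and first SAG tables, out of 325 passing cells among 360 in the whole series.

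The study compared skeletal stem and progenitor cells of the coronal (COR), sagittal (SAG) and posterior frontal (PF) sutures, the fibrous joints of the skull vault, with those of the growth plate (GP), the cartilage from which the tibia lengthens. All cells came from wild-type CD-1 mice at postnatal day 3, with no mutation or treatment, and were sorted into wells as CD51+ and CD200+ and as 6C3-, CD105-, Tie2-, CD45-, Ter119-, Thy1.2- and Thy1.1-. The suture samples were taken as whole suture complexes of bone and mesenchyme, and no animal is named for a cell. Each tissue therefore counts as 1 sample of each class of cells, and every test below sets 4 pairs of tissue sums against the spread between tissues.

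CD51 is integrin alpha v, a subunit that pairs with 1 of several beta subunits and binds matrix proteins through the tripeptide arginine-glycine-aspartate (RGD), among them vitronectin, fibronectin and the bone proteins osteopontin and bone sialoprotein. CD200 is a membrane glycoprotein of the immunoglobulin family whose known receptor sits on myeloid cells. Together they are used to sort skeletal stem and progenitor cells. A sort reads protein at the surface, whereas the cells here were chosen by RNA within a population already positive for both proteins.

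Members were found in every tissue. They were 17 of 87 PF cells (19.5%, interval 11.8 to 29.4), 25 of 74 COR cells (33.8%, 23.2 to 45.7), 19 of 78 GP cells (24.4%, 15.3 to 35.4) and 9 of 30 SAG cells (30%, 14.7 to 49.4). The intervals of the 4 tissues overlapped. By plate the share ran from 11.8% of 34 PF cells on plate 1 to 50% of 16 COR cells on plate 1. The second SAG table was left out of the comparison: 45 of its 56 passing cells had neither transcript and 1 had both.

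Reads of the 2 genes that chose the cells are given as a description. Among the 70 members the median was 46.5 Itgav reads (range 1 to 360) and 85 Cd200 reads (range 1 to 873), and 53 of them had more Cd200 than Itgav reads. Cells with Itgav alone had a median of 56 Itgav reads, and cells with Cd200 alone had a median of 51.5 Cd200 reads. At the threshold, 5 members had 1 read of their scarcer gene, 4 had 2 reads and 5 had 3 reads, and just outside it lay the 55 and 68 cells with reads of one gene and 0 of the other. At least 10 reads of each gene were found in 50 members. Within the members the levels of both genes in log2 CPM had a Pearson r of 0.10 and a Spearman rho of 0.12 over 70 cells, which share 7 plates and a common total per cell.

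The share of cells with both transcripts lay near that which their separate frequencies give. Itgav was read in 46.5% of the 269 cells and Cd200 in 51.3%, for which independence gives 23.8% of cells with both, against 26.02% found. The odds ratio pooled over tables by the Mantel-Haenszel formula was 1.34, with single tables between 0.79 and 2.63. Genes per cell moved with this value. Members had a median of 3356 genes with a read, cells with neither transcript 2467, cells with Itgav alone 3113 and cells with Cd200 alone 3013. With each table split at its median of genes per cell, the pooled odds ratio was 1.18. It was 1.44 over the 135 cells with fewer genes and 0.98 over the 134 cells with more, a split chosen after seeing the data. No test was made of these shares.

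**Figure D1:**
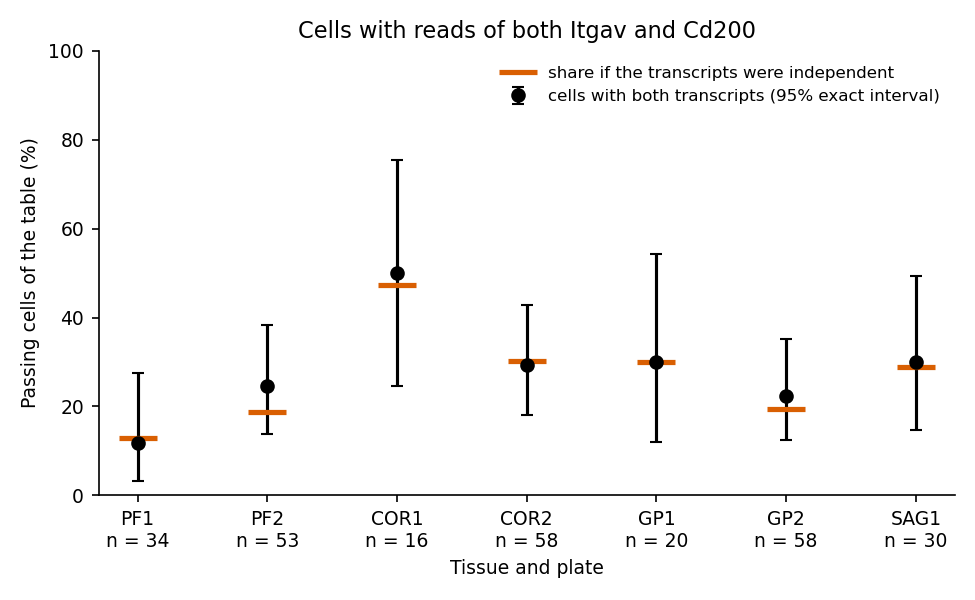
Share of passing cells with reads of both Itgav and Cd200 (y axis, percent) in each table (x axis, tissue and plate with its number of cells). Points are the measured share with its 95% exact binomial interval and the horizontal marks are the share that independence of both transcripts gives. In each of the 7 tables the interval holds the mark, which is computed from the same cells. The intervals are wide, from 24.7 to 75.3% on COR plate 1, so this does not show independence.

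To ask what else differed, each member was paired within its table with a cell of neither transcript whose number of genes differed by at most 25%. This gave 46 pairs, of which PF had 15, COR and GP 13 each and SAG 5. Paired members had a median of 2989 genes with a read and their partners 2978. Reads other than the ribosomal RNA gene Rn45s had medians of 430337 and 425372, and Rn45s took 23.1% and 24.3% of all reads. The counts of each class were added up within a tissue, and levels are given as CPM, counts per 1000000 reads other than Rn45s after TMM scaling. The 24 members without a partner have no value in what follows. As no molecular identifiers were used, and a class holds few cells, a few cells can carry most of the reads of a gene: the top cell held a median of 23.9% of a gene's reads in members and 24.4% in the cells with neither transcript.

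No gene passed the test. Of 7942 genes tested with edgeR's quasi-likelihood test, tissue as a block, 0 had a Benjamini-Hochberg adjusted p under 0.05 (0.0% called) and the smallest adjusted p was 0.999. Without adjustment 160 genes had p under 0.05, 90 higher and 70 lower in members. DESeq2 on the same sums called 107 genes, 63 higher and 44 lower, and limma on the mean log2(CPM+1) of the cells called 0 with 405 at an unadjusted p under 0.05. A gene was higher in members in all 4 tissues for 6.35% of the genes tested and lower in all 4 for 5.89%. The 4 sums of members lay entirely above the 4 other sums for 1.22% of the genes and entirely below for 1.21%. The log2 ratio, members over cells with neither transcript, was above 0 for 50.6% of the genes, with a median of 0.02, and 50.5% of the genes were read in more members than partners. All values by tissue below are read against these shares and none is a call by edgeR. Counts of tables are description only, unless a share of all genes is given beside them. The tables are parts of the same tissue sums, so a choice of genes by p and sign in those sums favours such counts. Some tables are small: the first plate held 2 pairs in COR and 3 each in PF and GP.

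Osteoblast genes lay on one side. All 18 listed genes were tested, all 18 had a log2 ratio above 0, 17 were read in more members than partners, and 9 were higher in all 4 tissues. The median log2 ratio of the list was 3.28. It was 2.37 over the 15 genes read in at least 20% of the paired cells, of which 7 were higher in all 4 tissues. With cells thinned to 100000 reads it was 1.69, with 15 of 16 genes above 0, and with limma on the mean log2(CPM+1) of the cells, where each cell has equal weight, it was 1.42. The list was drawn up with earlier results of these data known, its genes are expressed together in bone cells and are not independent of each other, and 0 of the 18 passed the test.

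Within the list Dmp1 had the largest ratio. Dmp1, dentin matrix protein 1 of osteocytes and late osteoblasts, stood at 5295 CPM in PF members, 2233 in COR, 0.951 in GP and 1463 in SAG, against 22.03 in the PF cells with neither transcript and 0 in those of COR, GP and SAG. It was read in 9 of 46 members and in 1 of 46 partners, and 1 cell held 66.1% of its reads. Its log2 ratio was 10.96 ± 1.68 (SE derived from the edgeR F statistic, 4 pairs of sums, edgeR adjusted p = 0.999). In GP the difference rested on 5 reads. Dmp1 and Phex, each read in 10 of the 92 cells, reached the filter for testing, a read in at least 10% of them, mainly through the members where they are high.

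Ibsp, bone sialoprotein, stood at 3629.6 CPM in PF members, 3456 in COR members, 1605 in GP members and 2813 in SAG members. The cells with neither transcript had 176 (PF), 373 (COR), 0 (GP) and 0.696 (SAG), so the groups did not overlap. Its reads came from 15 members and 6 partners, with a log2 ratio of 7.39 ± 2.37.

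Spp1, osteopontin, is a secreted phosphoprotein of bone matrix. It stood at 48521 CPM in PF members, 179815 in COR, 37224 in GP and 151110 in SAG, against 4161, 22832, 544 and 0. The groups did not overlap, 30 members and 16 partners had a read, and the log2 ratio was 5.38 ± 2.28. By table it was higher in members in 5 of 7 and lower in 2.

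The osteocalcin genes Bglap and Bglap2 had log2 ratios of 4.22 ± 1.41 and 4.23 ± 1.26 and were read in 18 members each, against 12 and 11 partners. They are near-identical copies that may share reads. Ifitm5, a membrane protein of mineralising osteoblasts, was read in 15 members and 5 partners (4.03 ± 1.47), Smpd3, a sphingomyelinase needed for mineralisation, in 14 and 6 (4.18 ± 1.67), and Phex, an endopeptidase of phosphate balance, in 8 and 2 (5.35 ± 2.86). Mef2c, a transcription factor of bone and muscle, was read in 27 and 15 (2.53 ± 1.45) and the proteoglycan gene Omd in 21 and 10 (2.40 ± 1.52). Dmp1, Ibsp, Spp1, Bglap, Bglap2, Ifitm5, Smpd3 and Mef2c are among the 9 genes of the list that were higher in each tissue.

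The early and general genes of the list differed less. Runx2 and Sp7, the transcription factors that set the osteoblast lineage, had log2 ratios of 0.20 ± 0.82 and 0.78 ± 0.71, and the ratio of Runx2 was below 0 in PF and GP. Alpl, alkaline phosphatase, had 0.85 ± 0.49 and was read in 30 members and 30 partners. The type I collagen genes Col1a1 and Col1a2 had 1.27 ± 1.09 and 1.07 ± 1.02, the matrix protein gene Sparc 0.95 ± 0.66 and Cthrc1 0.89 ± 0.43. These 4 genes were higher in PF, COR and SAG members and lower in GP members. Col1a1, for example, stood at 134428 CPM against 57426 in PF and at 70758 against 118328 in GP.

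**Figure D2:**
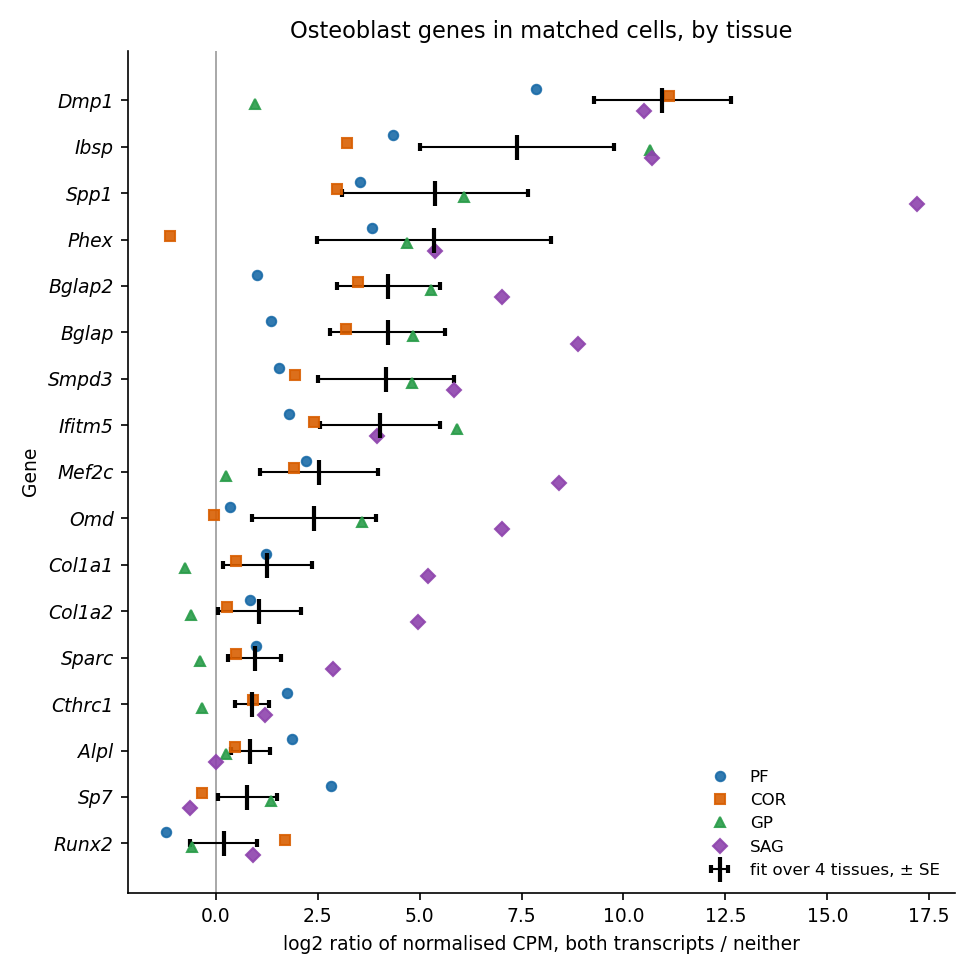
Log2 ratio of normalised CPM (x axis, members with both transcripts over matched cells with neither) for 17 of the 18 osteoblast genes (y axis). Coloured points are the 4 tissues and black bars the fit over tissues ± SE. Genes at the top, from Dmp1 to Ifitm5, lie mostly to the right of 0, and the spread between tissues is wide, as with Spp1 in SAG.

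Few cells carried much of the summed level. Summed over the list, members stood at 339725 CPM against 139705 in PF, 380074 against 162387 in COR, 191908 against 233595 in GP and 312321 against 10056 in SAG. In SAG 1 of the 5 members held 93.98% of the list's reads, and in PF, COR and GP the top member held 21.5%, 34.1% and 33.3%. Taken by table, the summed level was higher in members in 4 of 7 tables, and lower in PF plate 1 and both GP plates. With SAG left out 17 of 18 genes kept a log2 ratio above 0, 10 were higher in each of the 3 remaining tissues (12.97% of all genes were) and the median of the list was 2.23. With each table as a block in place of each tissue, 0 of the 18 genes were higher in every one of the 6 tables that had at least 3 pairs (0.922% of all genes were), 15 had a log2 ratio above 0 and the median was 2.26.

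Cell by cell, the mean log2(CPM+1) over the 18 genes had a median of 4.86 in the 46 paired members (quartiles 3.61 and 7.87) and 3.77 in their partners (3.45 and 4.62). With tissues pooled, the lower quartiles were thus close and the upper quartiles apart. Within tissues the lower quartiles of members and partners were 3.64 and 3.51 in PF and 5.24 and 3.45 in COR. They were 3.42 and 3.74 in GP and 2.58 and 0.864 in SAG. In PF the upper quartile was 9.06 in members and 3.82 in partners, whereas the medians were 4.36 and 3.65. In COR the members had a median of 6.67 and the partners 4.26, and in GP the medians were 4.12 and 4.02.

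Which of the transcripts this went with was asked in the cells with 1 of them. Over all passing cells, without matching, the mean of the list was 4.13 (SD over cells 1.90, 76 cells) with neither transcript, 4.06 (SD 1.41, 55 cells) with Itgav alone, 5.14 (SD 2.31, 68 cells) with Cd200 alone and 5.62 (SD 2.47, 70 cells) with both. These means pool tissues of unequal level and make-up. In PF (4.23, 3.57, 6.48 and 5.77) and COR (5.003, 4.51, 5.83 and 6.51) Itgav alone was lowest and Cd200 alone was nearer to both than to neither. In GP (3.87, 4.25, 3.99 and 4.60) and SAG (2.67, 2.93, 3.42 and 5.02) Cd200 alone stood nearer to neither. Dmp1 was read in 6.58% of cells with neither, 0 of 55 with Itgav alone, 17.6% with Cd200 alone and 14.3% with both. Smpd3 was read in 13.2%, 3.64%, 22.1% and 32.9%, and Ifitm5 in 11.8%, 7.27%, 29.4% and 30%. Omd was read in 17.1%, 9.09%, 42.6% and 52.9%.

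**Figure D3:**
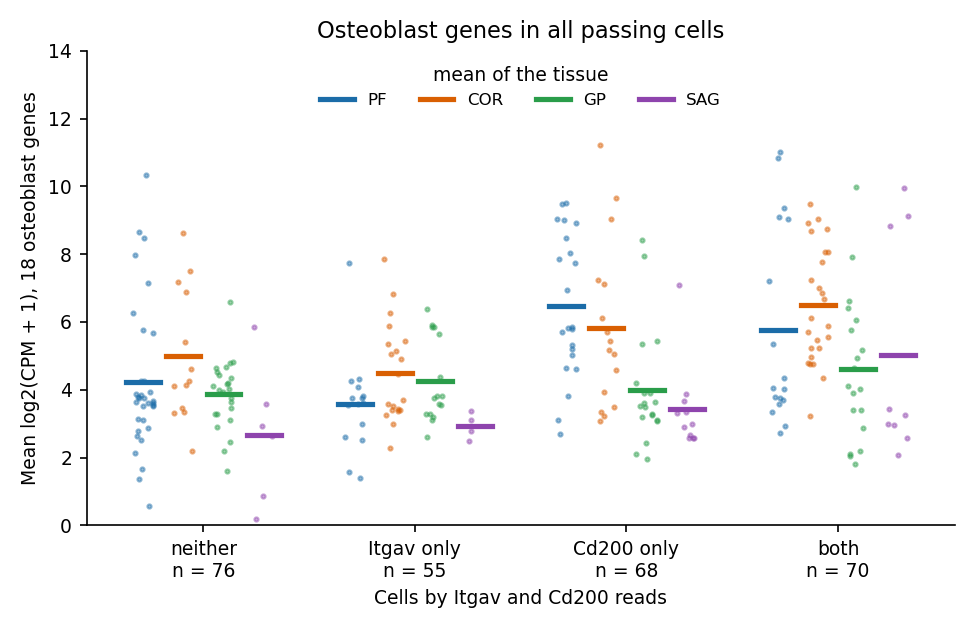
Mean log2(CPM+1) over the 18 osteoblast genes (y axis) for each passing cell, grouped by its Itgav and Cd200 reads (x axis, with the number of cells). Points are cells, coloured by tissue, and bars are the mean of the tissue. The bars of PF and COR are highest in cells with Cd200 alone and in cells with both, and genes per cell were not matched here.

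A matched comparison of cells with Cd200 alone against cells with Itgav alone uses no cell of the first comparison. It had 47 pairs (PF 12, COR 15, GP 16, SAG 4) and was added after the values above had been seen. Of 8442 genes 0 were called by edgeR (0.0% called, smallest adjusted p 1.00), and an unadjusted p under 0.05 was found for 49 genes higher and 52 lower with Cd200 alone. The log2 ratio, Cd200 alone over Itgav alone, was above 0 for 15 of 16 osteoblast genes tested (50.3% of all genes), with a median of 2.87 (0.01 over all genes). In all 4 tissues 3 of 16 were higher (5.14% of all genes) and 0 lower (4.76%). The 3 were Col1a1, Col1a2 and Sparc, and Dmp1 and Phex were not among the genes tested. Bglap had a log2 ratio of 5.64 ± 1.05, Omd 5.03 ± 2.39, Ibsp 4.61 ± 2.48, Smpd3 4.53 ± 1.84, Ifitm5 4.38 ± 1.01 and Spp1 3.74 ± 2.95. None of these was higher in all 4 tissues. With Cd200 alone Omd was lower in GP (43.7 against 115 CPM) and Spp1 in SAG (4.26 against 136). Runx2 and Sp7 had 0.01 ± 1.72 and -0.0047 ± 0.86. With 4 pairs in SAG, Bglap, Ibsp, Smpd3 and Ifitm5 had no SAG read in either class.

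Genes of hypertrophic cartilage, the layer that mineralises before bone replaces it, were few. Of 6 listed, 4 were tested: Ibsp, which is on the osteoblast list too, Pth1r, Mmp13 and Panx3. All 4 had a ratio above 0, with a median of 3.86. The collagen gene Col10a1 held 36.6% of the list's reads in members but was not among the 4 tested. The log2 ratio of the summed list was above 0 for 4 of 7 tables. It ran from -9.08 on PF plate 1 to 7.93 on GP plate 2, and was 0.0002 for COR as a whole. The 4 ratios therefore do not show a difference in hypertrophic cartilage genes as a group. Pth1r, the receptor for parathyroid hormone and its related peptide, was read in 30 members and 17 partners and stood at 329 CPM against 99.5 in PF, 289 against 160 in COR, 127 against 59.6 in GP and 269 against 59.1 in SAG, with a log2 ratio of 1.46 ± 0.42. It was higher in 4 of 4 tissues and 6 of 7 tables. Mmp13, collagenase 3, was read in 18 and 6 (4.56 ± 2.79) and was lower in COR members (665 against 4346 CPM). Panx3, a channel protein, was read in 19 and 7 (3.15 ± 1.75). The 14 chondrocyte genes tested had a median of 0.34, with 8 above 0 and 6 below. Higher in all 4 tissues were Col11a2 (3.61 ± 1.52), a cartilage collagen, and Lect1 (2.08 ± 1.02), and lower was Acan (-1.21 ± 0.49), the aggrecan gene. Lect1 was read in 7 members and 5 partners.

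Partners and ligands of integrin alpha v came next. Itgb1, the beta 1 subunit, was higher in members in 4 of 4 tissues and 6 of 7 tables, at 945 CPM against 597 in PF, 1073 against 638 in COR, 1541 against 1091 in GP and 1312 against 378 in SAG. Its log2 ratio was 0.92 ± 0.35, and the groups overlapped. Over all passing cells Itgb1 was read in 85.5% of cells with neither transcript, 98.2% with Itgav alone, 88.2% with Cd200 alone and 98.6% with both. The cells with both thus stood near those with Itgav alone, but genes per cell were not matched here. In the matched comparison of Cd200 alone over Itgav alone, Itgb1 had a log2 ratio of -0.21 ± 0.36 and was read in 43 and 46 cells. Itgb5, the beta 5 subunit, had -0.33 ± 0.59 in members over partners and was higher in members in PF alone. Itgb3 was read in 6 members and 1 partner, Itgb8 in 3 and 1, and Itgb6 in none of the 92 cells, so these 3 were not tested. The other integrin alpha subunits had 5 tested genes with a median of -1.98, with Itga10 higher in all 4 tissues (2.80 ± 2.31, read in 16 and 4) and Itga5 lower (-2.27 ± 1.40, read in 11 and 16). The 21 tested genes of the adhesion machinery behind integrins had a median of 0.48, with 15 above 0. In all 4 tissues Fermt2, a kindlin, was higher (0.86 ± 0.44) and Actn1, an alpha-actinin, lower (-0.55 ± 1.16). Flna, Ilk, Tln1 and Actn4, its most abundant genes, had log2 ratios of 0.08, 0.85, 0.06 and -0.08.

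Of 20 listed ligands of alpha v integrins 17 were tested. Their median log2 ratio was 0.15, 10 were above 0, and 3 were higher in all 4 tissues, with 0 lower. The same 3, Fn1, Spp1 and Ibsp, had sums that did not overlap between classes. Fn1, fibronectin, stood at 1936 CPM in PF members, 2725 in COR, 4321 in GP and 5250 in SAG, against 1328, 1439, 1040 and 1643, and was higher in 7 of 7 tables with a log2 ratio of 1.30 ± 0.39. In GP 1 member held 84.8% of its reads. Summed over the list the ratio was above 0 in 7 of 7 tables, and Spp1 alone made up 85.5% of the list's reads in members. Postn, periostin, had 0.48 and Tnc, tenascin C, 0.83, each without one sign in all tissues.

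The RGD motif through which alpha v binds is shown for the ligands that stood higher in members and for Dmp1, which carries it too. Each line gives coding sequence of the named gene on the strand of the gene, from GENCODE transcripts on build mm9, with the 9 bases of the RGD codons in capitals. Spp1 (chr5:104868491-104868517, exon 7 of 8), Ibsp (chr5:104739485-104739511, exon 7 of 7) and Dmp1 (chr5:104641517-104641543, exon 6 of 6) are on the plus strand, and Fn1 (chr1:71653311-71653337, exon 30 of 46) is on the minus strand.
Spp1: cccaacggcCGAGGTGATagcttggct
Ibsp: ggggagcctCGTGGCGACacttaccga
Dmp1: agcgagtccAGGGGTGACaacccagat
Fn1: gtcactggcCGTGGGGACagtccagca
The codons for the same 3 amino acids differ between the 4 genes. Spp1, Ibsp and Dmp1 each hold 1 such motif and Fn1 holds 2, of which the first is shown. Spp1, Ibsp and Dmp1 lie on the same chromosome, between positions 104631632 and 104870069. The genes that chose the cells lie elsewhere: Itgav at chr2:83564554-83647073 on the plus strand, with 30 exons, and Cd200 at chr16:45382248-45409166 on the minus strand, with 6.

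CD200 acts through a receptor on other cells, and its receptor genes had almost no reads. Cd200r1 had 2 reads in 1 member and 0 in partners, and Cd200r2, Cd200r3 and Cd200r4 had 0 reads in the 92 cells. Genes of the sort's negative markers were read in few cells: Ptprc was read in 1 member and 1 partner, Enpep in 2 and 2, Eng in 0 and 3, and Thy1 and Tek in none. Their summed level was 0.511 CPM in PF members, 0.182 in COR, 9.32 in GP and 0 in SAG, against 38.1, 36.4, 0 and 0 in the cells with neither transcript, where Eng had 248 reads. Lists of blood, endothelial, red cell and skeletal muscle genes had 0 genes that reached the level for testing. The summed level of blood cell genes lay between 0.182 and 47.3 CPM in members and between 1.39 and 20.8 in the cells with neither transcript (10 and 7 cells with any read). Endothelial genes lay between 0 and 24.2 CPM in members and between 6.96 and 96.8 in the other class (3 and 10 cells). Red cell genes reached at most 0.545 and 7.84 CPM, and skeletal muscle genes at most 0.340 and 16.7. The part of these reads in the differences between classes was not tested.

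Outside the lists, the named genes are those with the smallest p among genes of one sign in 4 tissues, 12 in each direction. Higher in members were, after Dmp1, Serpine2, Col22a1, Cpe, Lgmn, Tpp1, Tspan6, Sema3d, Golm1, Sgms2, Mrpl44 and Pggt1b. Serpine2, an inhibitor of serine proteases, stood at 1087 CPM in PF members, 2104 in COR, 1211 in GP and 3162 in SAG, against 270, 913, 297 and 689 in the same order (log2 ratio 1.86 ± 0.33, 6 of 7 tables). The groups did not overlap. The lysosomal protease genes Lgmn and Tpp1 had 1.83 ± 0.45 and 2.26 ± 0.57. Lgmn lay between 122 and 231 CPM in members and between 33.7 and 54.5 in the cells with neither transcript, and Tpp1 between 91.3 and 177 and between 21.8 and 36.1. Cpe, carboxypeptidase E, had 1.58 ± 0.37, the tetraspanin gene Tspan6 1.75 ± 0.44 with 7 of 7 tables higher, and Sema3d, a secreted semaphorin, 2.79 ± 0.72.

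Golm1, a Golgi membrane protein gene, was read in 21 members and 3 partners (6.70 ± 1.76). Col22a1, a collagen of tissue junctions, was read in 10 and 2 (8.24 ± 1.75), and Mrpl44, of the mitochondrial ribosome, in 10 and 2 (6.27 ± 1.76). Sgms2, a sphingomyelin synthase, had a log2 ratio of 1.33 ± 0.37 but was read in 19 members and 21 partners, and with limma on mean log values it was -0.81. Pggt1b, a subunit of a prenyltransferase, had 1094 reads in 11 members and 0 in the 46 partners, which allows a share of up to 6.52% of such cells. It reached the filter for testing, a read in at least 10% of the paired cells, through the members alone. Col22a1 and Mrpl44 likewise reached it mainly through the members, so no ratio of these 3 genes bounds the difference between the classes. Of the 12 genes, 7 had sums that did not overlap, against 1.22% of all genes with members entirely above. The choice of the 12 by p and sign in the same sums favours this.

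**Figure D4:**
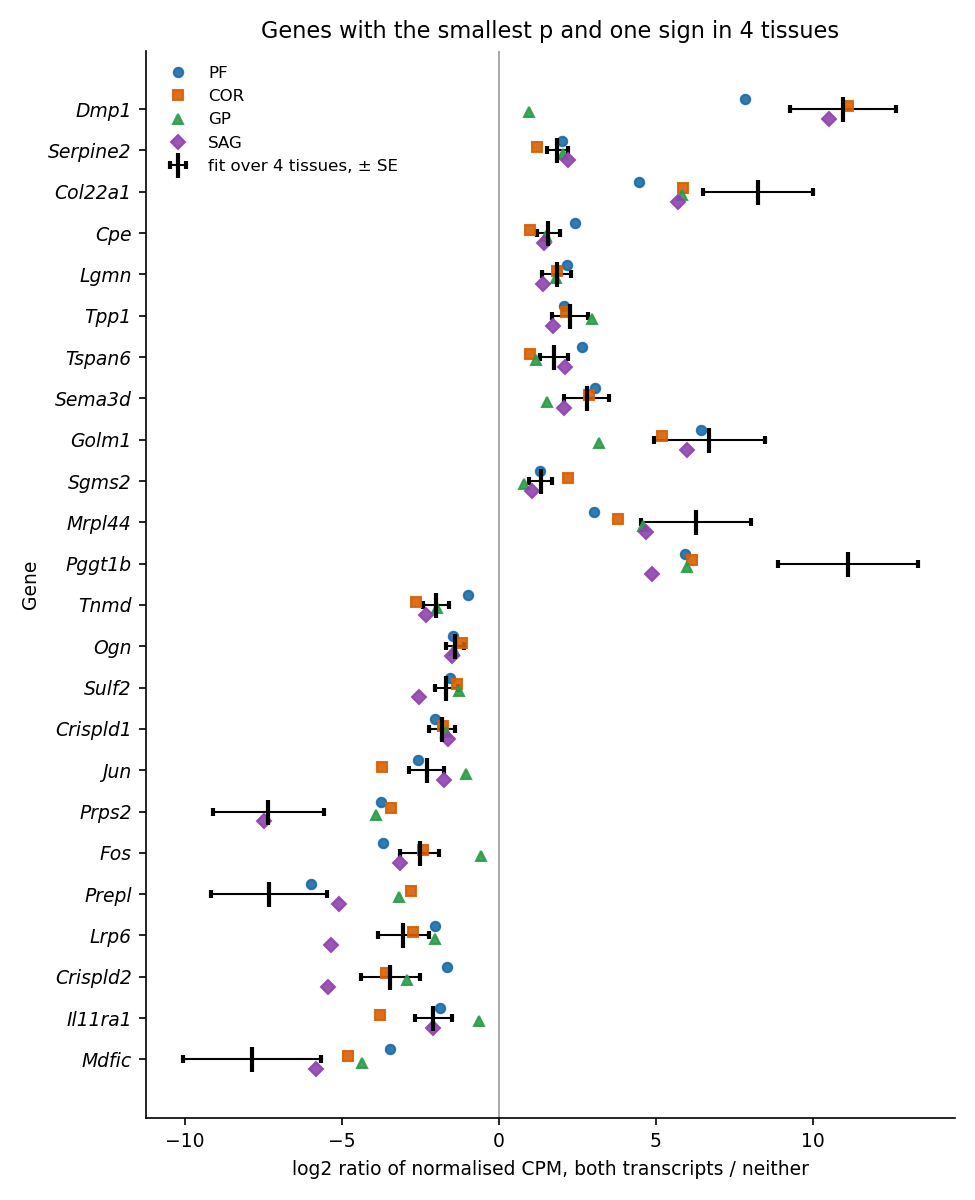
Log2 ratio of normalised CPM (x axis, members over matched cells with neither transcript) for the 24 genes with the smallest p and one sign in all tissues (y axis). Coloured points are tissues and black bars the fit ± SE. Serpine2, Lgmn, Ogn and Crispld1 have the closest tissues, while the genes with the largest ratios have wide errors.

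Lower in members were Tnmd, Ogn, Sulf2, Crispld1, Jun, Prps2, Fos, Prepl, Lrp6, Crispld2, Il11ra1 and Mdfic. Ogn, osteoglycin, a small proteoglycan of fibrous tissue, stood at 601 CPM in PF members, 437 in COR, 2492 in GP and 658 in SAG, against 1666, 999, 6749.9 and 1851 in the same order. It was lower in 7 of 7 tables, with a log2 ratio of -1.40 ± 0.30. Tnmd, tenomodulin, a marker of tendon cells, stood at 148, 15.3, 682 and 27.2 CPM in PF, COR, GP and SAG members and at 292, 101.2, 2693 and 141 in the cells with neither transcript (-2.02 ± 0.41). Sulf2, an extracellular sulfatase, had -1.68 ± 0.37 and the secreted protein gene Crispld1 -1.81 ± 0.41. Its relative Crispld2 had -3.46 ± 0.94.

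The cytokine receptor gene Il11ra1 was read in 20 members and 35 partners and was lower in 7 of 7 tables (-2.10 ± 0.58). Lrp6, a Wnt co-receptor, was read in 14 and 23 (-3.04 ± 0.82). Prps2, of nucleotide synthesis, was read in 3 and 7 (-7.35 ± 1.77), the peptidase-like gene Prepl in 2 and 12 (-7.33 ± 1.86) and Mdfic, a transcriptional regulator, in 2 and 8 (-7.87 ± 2.20). Prps2, Prepl and Mdfic reached the filter for testing mainly through the partners, where they are high. Their ratios therefore do not bound the difference between the classes. Of these 12 genes, 3 had sums that did not overlap, against 1.21% of all genes with members entirely below, and their choice by p and sign favours this too.

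Tendon and fibrous genes were mixed. The 7 tenocyte genes tested had a median of -0.32, with 0 higher and 2 lower in all 4 tissues, Tnmd and the thrombospondin gene Thbs2 (-0.94 ± 0.31). Fmod, fibromodulin, had -0.32 ± 0.44. The 14 fibroblast and suture genes had a median of -0.01, and 3 were lower in all 4 tissues: Ogn, Igf1, a growth factor (-2.11 ± 1.65), and Col14a1, a collagen of fibrous tissue (-2.55 ± 1.55, lower in 7 of 7 tables). The abundant genes of that list, Col3a1, Lum and Dcn, had -0.01, 1.20 and -0.17. The 10 tested stem and progenitor markers had a median of -0.21, and Pdpn, podoplanin, was lower in all 4 tissues, read in 9 members and 22 partners (-2.79 ± 1.61). The most abundant were Ctsk at -0.32, Pdgfrb at -0.90, Cd164 at 0.53 and Acta2 at -2.54. The 4 tested pericyte and smooth muscle genes had a median of -1.51, and Tagln, of smooth muscle (-2.11), was lower in all 4 tissues.

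Immediate early genes, which are switched on within minutes of a stimulus and by cell isolation, had 15 tested genes with a median of -0.47, 0 higher and 3 lower in all 4 tissues. Fos stood at 11.9, 155, 1053 and 424 CPM in PF, COR, GP and SAG members and at 168, 833, 1568 and 3801 in the cells with neither transcript (-2.53 ± 0.61), Jun had -2.31 ± 0.55 and Btg2 -3.33 ± 1.26. The number of cells with a read differed little, at 11 and 14 for Fos and 15 and 17 for Jun. Fos rested on few cells: in PF it was read in 1 member and 1 partner. In COR 1 member held 99.2% of the members' Fos reads, and in SAG 1 partner held 87.7% of the partners'. Summed over the list, members were higher in 1 of 7 tables, GP plate 1, with a log2 ratio of 4.13. The 11 heat shock genes had a median of -0.41 with 4 lower in all 4 tissues. They were Hspa8 (-0.61 ± 0.40, lower in 7 of 7 tables), Dnaja1 (-0.34), Bag3 (-1.52) and Hsph1 (-1.89), the last read in 5 members and 19 partners. The part of handling time in these values was not tested.

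Of the remaining lists, Wnt pathway genes had few tested members. Among 7 Wnt inhibitors (median 0.24) Dkk1 was the one gene higher in all 4 tissues, read in 9 members and 3 partners (7.66 ± 2.22), while Sfrp2 was read in 7 and 14 (-4.35 ± 1.95). Among 4 response genes (median 0.63) Tcf7, a mediator of Wnt signals, was higher in all 4, read in 11 and 2 (7.53 ± 2.64). Dkk1 and Tcf7 reached the filter for testing mainly through the members, so neither ratio bounds the difference between the classes. The 2 tested Wnt ligands, Wnt5a and Wnt9a, had -2.34 and 0.59. Genes of a list that are not among its 4 most abundant, such as Dkk1, Sfrp2, Igf1 and Col14a1, were named after their values had been seen. Among TGF-beta response genes 4 of 12 were above 0 (median -0.42), and Tgfbr2, a receptor subunit (-1.10), and Ski (-1.83) were lower in all 4 tissues. The 28 ribosomal protein genes had a median of 0.16, with 24 above 0 and 6 higher in all 4 tissues, and the 16 secretory pathway genes 0.06, with Serpinh1 (0.56), Pdia4 (0.39) and Ddit3 (1.26) higher in all 4. The S phase genes had a median of -1.06, with 3 of 12 above 0 and Pcna lower in all 4 tissues (-1.23), and 0 G2 and M phase genes were tested. Summed over the G2 and M list, members stood at 404 CPM against 23.7 in COR and 1852 against 474 in GP. They stood at 14.8 against 46.1 in PF and 0.80 against 0 in SAG, and 1 cell held 78.6% of the members' reads. With Cd200 alone against Itgav alone, 12 of 13 S phase genes were below 0 (median -1.05). In the same comparison 4 of 5 tested G2 and M phase genes were above 0 (median 0.59). Osteoclast genes (3 tested, median 0.22), neural genes (2, median 1.61), hindlimb genes (2, median 0.02) and cranial genes (4, median -0.41) had 0 members of one sign in all 4 tissues.

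**Figure D5:**
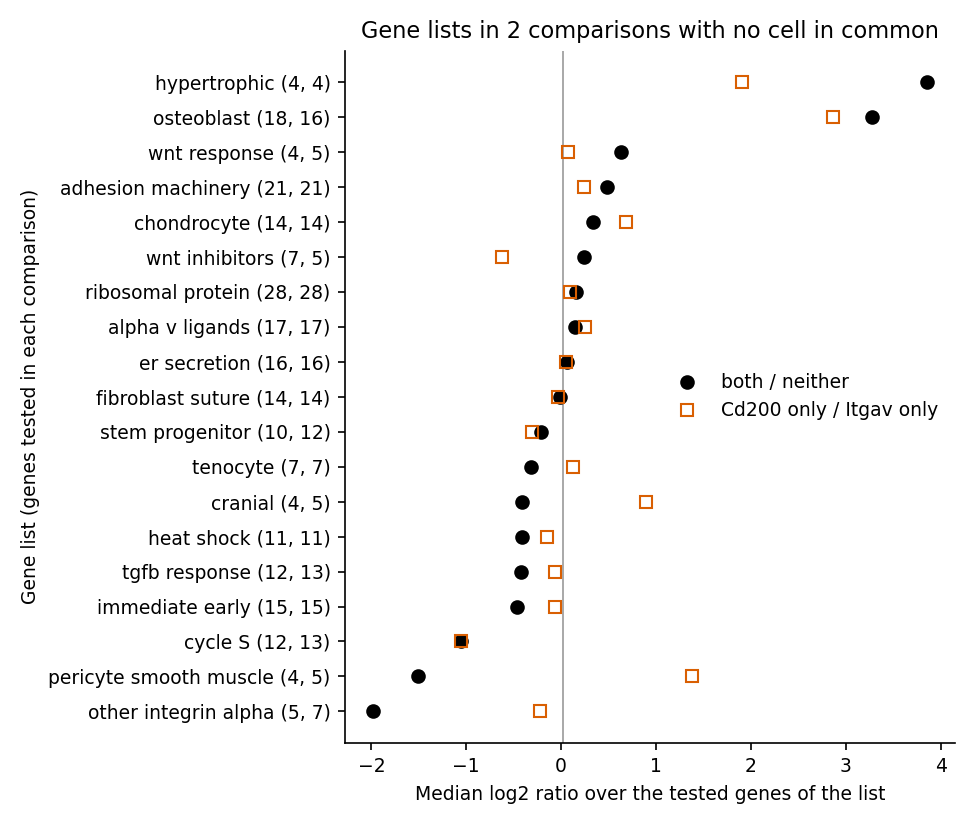
Median log2 ratio over the tested genes of each list with at least 4 tested genes (x axis) in the comparison of cells with both transcripts against neither (filled circles) and of cells with Cd200 alone against Itgav alone (open squares). The grey line is the median over all genes, 0.02. The osteoblast list stands at 3.28 and 2.87, and the hypertrophic list, which shares Ibsp with it, at 3.86 and 1.91.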

How the data were processed

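Single cells sorted as CD51+;CD200+ were sequenced from well plates without molecular identifiers. The authors deposited read counts per gene and cell, not normalized, in 1 table per tissue and plate; per the labels, the submitters' processing notes name STAR 2.5.3a, HTSeq, Seurat 2.3.0, R 3.4.4 and build mm9, with strand handling not given in the sources used here. Cells with at least 500 detected genes and at least 10000 reads were kept. The ribosomal RNA gene Rn45s was left out of totals. Cells were paired 1 to 1 within a table when their genes per cell differed by at most 25% of the smaller. Genes with a read in at least 10% of the paired cells were tested, Itgav and Cd200 left out. Counts were summed into 8 sums and fitted with edgeR 4.0.16 (quasi-likelihood test, TMM, tissue as a block, Benjamini-Hochberg threshold 0.05) in R 4.3.3. Ratios by tissue or table are log2 ratios of CPM after adding 1 CPM. Each SE of a fitted log2 ratio is its absolute value divided by the square root of the quasi-likelihood F statistic. DESeq2 1.42.0, limma 3.58.1 on mean log2(CPM+1), other scalings, filters, matchings and omission of each tissue were alternatives. Tables were handled in Python 3.11.15 with pandas 2.3.3 and scipy 1.17.1, and the fits were tested on simulated data.

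The labels name no animal for a cell, so p-values measure the spread between 4 tissues, which may be technical. The members and gene lists were chosen with earlier results of these data known. Named genes are up to 12 in each direction with the smallest p and one sign in all 4 tissues, up to 4 of each list with the highest mean CPM, and every gene of the sort, receptor and beta subunit lists. Intervals are exact (Clopper-Pearson, 95%), and they and the limit that a count of 0 allows (3 counts) cover counting error only. The labels of 1 cell conflict between tissues, and it is in neither compared class. Near-identical gene copies and overlapping genes may share reads. RGD motifs were read from mm9 with GENCODE transcripts. The values of 1 osteoblast gene are not reported here on their own.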

Additional observations from a re-analysis of the deposited data

Results flagged for a closer look

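The tenocyte list stood apart in GP. Over its tested genes the median log2 ratio, members over matched cells with neither transcript, was -1.41 in GP, against -0.09 in PF, -0.13 in COR and 0 in SAG, a gap that passed Dixon's criterion for 4 values. It was the 1 value that passed among 21 groups of tissue or table values so examined, and chance alone passes about 1 in 20.

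The summed level of the fibroblast and suture list differed in sign between growth plate and sutures. Its log2 ratio was -1.03 in GP, with -1.13 on plate 1 and -1.02 on plate 2. It was 0.32 and 0.19 on the PF plates, 1.68 and 0.22 on the COR plates and 0.28 in SAG. All suture plates thus stood above 0 and both GP plates below, and the difference was not tested. It was the 1 such split found among 24 lists searched in either direction. Col3a1 held 41.3% of the list's reads in members and 46.8% in the cells with neither transcript. COR plate 1 held 2 pairs and GP plate 1 held 3.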

How the results depend on the processing

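With DESeq2 63 genes were higher and 44 lower in members, against 0 with edgeR, and 308 genes had no adjusted p. Under the 19 alternatives run with edgeR, 0 genes were called and between 92 and 226 had an unadjusted p under 0.05. With each table as a block, 0 osteoblast genes were higher in all of 6 tables; COR plate 1, with under 3 pairs, was left out. Without each tissue in turn, members numbered 45 to 61 (45 without COR). For the named genes with the smallest p and one sign in all tissues, 482 of 483 values under the alternatives kept their direction. Sgms2 turned to -0.81 with limma on mean log values. These genes were chosen by that p and sign, and most alternatives reuse the same cells, so the kept direction was largely fixed by the choice. Of the 483 values 21, all with DESeq2, passed the threshold, 10 of them higher. Of 501 medians of 24 lists, 76 moved by more than 1 SD over tissues. Scaling to totals shifted the median of all genes to -0.23 and counting Rn45s in totals to -0.18, against 0.02.

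Plate and replicate numbers do not pair cells. Without the tissue block 0 genes were higher and 0 lower, 133 had an unadjusted p under 0.05, and 9 of 18 osteoblast genes were higher in all 4 tissues, with a list median of 1.82. A class of 5 SAG cells and sums dominated by single cells limit the precision.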
